A study of Arabidopsis thaliana with 33 samples.

Results

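The comparison set cells of the reporter line J2501, which the labels describe as a mixture of pericycle, protoxylem, metaxylem and phloem, against cells of the line S4, protoxylem and metaxylem of the meristematic zone. It used 2 of the 33 arrays of the series, taken by title, and all 22746 probe sets of each. The members were chosen by the labels and not by any measured value. The series profiled Arabidopsis thaliana roots on Affymetrix arrays: 8 populations of green fluorescent cells were sorted from protoplasted roots of seedlings 5 to 6 days after germination on standard medium, and 2 roots of 7 days were cut into sections along their length. Both J2501 and S4 cells had passed through protoplasting, sorting and amplification of their RNA in cycles. No treatment or mutant is given in the labels.

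The other lines marked xylem pole pericycle (JO121), phloem pole pericycle (S17), early phloem (S32, labelled as protophloem with metaphloem), companion cells of the phloem (SUC2), initials of lateral root primordia (RM1000) and hair cells (COBL9). Each line gave 1 array here, so no difference between J2501 and S4 can be tested. Whether that array is a single hybridisation or a mean of the 2 to 3 replicates named in the design was not stated. In a mixed population such as J2501, fewer cells of a type and less RNA per cell cannot be told apart.

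The root stele carries water and sugars. Xylem precursor cells leave the meristem, elongate, deposit patterned secondary walls of cellulose, xylan and lignin, and die to form vessels: protoxylem matures first and metaxylem later. Phloem carries sugars from the shoot, and the pericycle that surrounds both can divide to found lateral roots. HD-ZIP III transcription factors such as PHV, and auxin response repressors of the Aux/IAA family such as IAA20 and IAA30, are known from early xylem. By the labels given above, J2501 is a mixture of tissues and S4 is xylem of the meristematic zone. Whether the J2501 cells were at later stages than the S4 cells was not tested.

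The arrays differed in their spread, and this bears on every value that follows. The standard deviation of the log2 values was 0.879 in J2501 and 1.53 in S4, with 0.997 to 1.456 in the other 6 populations. J2501 had no value below 0.479, against 0.223 in S4, and 12.0% of probe sets reached a level of 2 in J2501, against 28.4% in S4. The median log2 difference, J2501 minus S4, was 0.12 over all probe sets as deposited. It ran from 0.73 in the lowest of 4 equal classes of mean level through 0.40 and -0.44 to -1.22 in the highest. After quantile normalization, which gives the arrays one common distribution, the same 4 medians were 0.02, 0.05, -0.08 and -0.09. Whether the narrow spread of J2501 came from its cells or from the making of its array was not tested. Each comparison is therefore given on both scales.

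**Figure D1:**
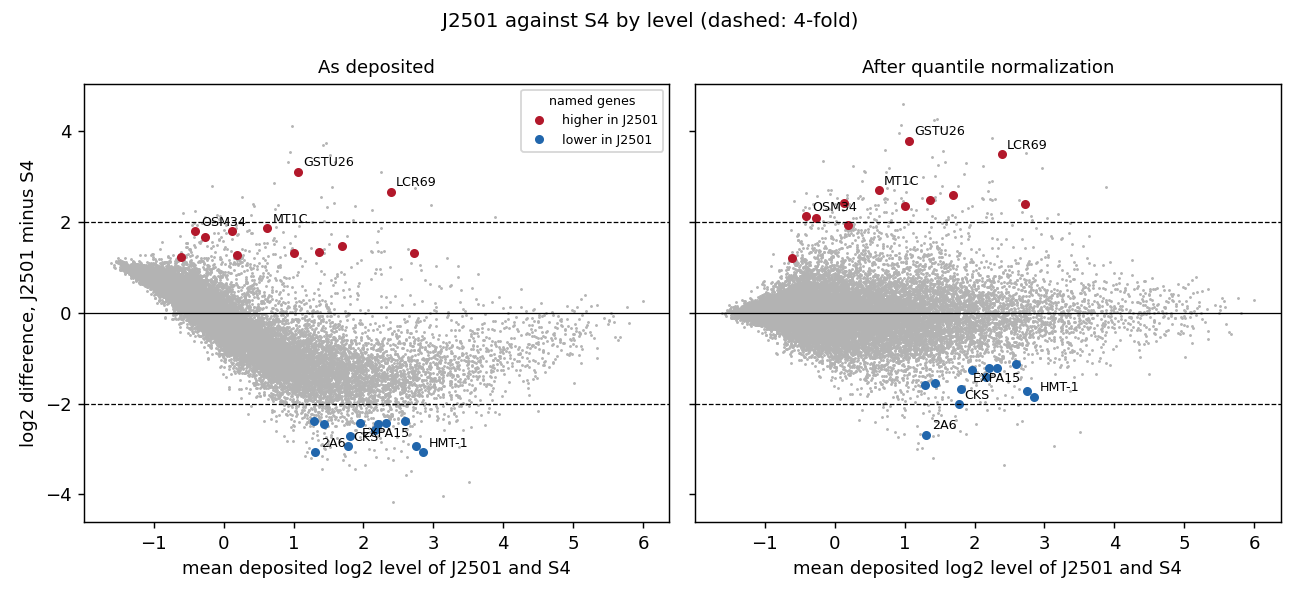
Log2 difference, J2501 minus S4, of every probe set (grey) against the mean deposited log2 level of both arrays, as deposited (left) and after quantile normalization (right); dashed lines mark 4-fold, and the 24 named genes are coloured. The deposited differences slope down with level, while after normalization they lie around 0 at every level.

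Rank order was close in the 2 populations. The Spearman correlation across probe sets, which share each array's scaling and are not independent, was 0.904 between J2501 and S4. J2501 correlated at 0.901 with the xylem pole pericycle, between 0.818 and 0.856 with the other 4 stele populations, and at 0.755 with hair cells. At a 4-fold difference in either direction 514 probe sets set J2501 apart from S4 as deposited, and 201 after normalization. Counted from the lowest of the 28 pairs of sorted populations, that was rank 2 after normalization, where the pairs ran between 170 and 1524, and rank 6 as deposited. For J2501 against JO121 the count was 144 as deposited, the lowest of the 28 pairs, and 271 after normalization, rank 5. Which population was nearest to J2501 by this count thus turned with the scale.

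The balance of directions turned with the scale. As deposited, 37 probe sets (0.163% of all) were at least 4-fold higher in J2501 and 477 (2.1%) at least 4-fold lower. After normalization 144 (0.633%) were higher and 57 (0.251%) lower. At 2-fold the counts were 551 higher (2.42%) and 4429 lower (19.5%) as deposited, and 774 higher (3.4%) and 627 lower (2.76%) after normalization. On both scales at once 280 probe sets were at least 2-fold higher and 581 at least 2-fold lower, and 0 were 2-fold apart in opposite directions. All 37 of the deposited 4-fold higher probe sets also passed 4-fold after normalization, as did 56 of the 477 lower ones.

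The labels were checked against markers. IAA20 had a level of 1.34 in J2501 and 1.12 in S4, against 0.667 in JO121, 0.481 in S17, 0.793 in S32, 0.523 in SUC2, 0.406 in RM1000 and 0.486 in COBL9. It was higher in both xylem-labelled populations than in each of the other 6, and the difference between them was log2 0.26 as deposited and 0.90 after normalization. PHV had a level of 2.67 in J2501 and 4.04 in S4, and at most 1.196 in the others. IAA31, another Aux/IAA protein, named after its values were seen, had 1.02 in J2501 and 1.09 in S4, and at most 0.656 elsewhere. Other Aux/IAA proteins measured did not share this. IAA18 was highest in S17, at 3.97, against 1.43 in J2501 and 2.34 in S4. IAA33 was highest in SUC2 and IAA34 in S32, and IAA29 was high in S4 but not in J2501. IAA30 had 1.56 in J2501 and 1.35 in S4, above the other stele populations, whose highest was 1.02 in S17, but below the 2.58 of hair cells. LHW, a transcription factor of vascular initials, did not follow this pattern as deposited: it had 2.24 in J2501 and 5.87 in S4, with 1.84 in JO121, 3.77 in S17, 4.03 in S32, 3.21 in SUC2, 3.94 in RM1000 and 1.02 in COBL9. On that scale S4 was the highest population for LHW, and J2501 lay below 4 of the other 6. After normalization LHW was within 2-fold between J2501 and S4.

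OSM34, an osmotin of the thaumatin-like family induced by osmotic stress, went with J2501 alone. Its level was 1.41 in J2501 and 0.405 in S4, with 0.696 in JO121, 0.486 in S17, 0.570 in S32, 0.716 in SUC2, 0.607 in RM1000 and 0.550 in COBL9. J2501 was the highest of the 8 and S4 the lowest. The difference was 3.48-fold as deposited and 4.37-fold after normalization.

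Phloem markers did not set J2501 apart from S4. Of 8 measured, 0 were 2-fold apart in either direction on either scale, and their median difference was 0.45 on both. Their levels in J2501 lay between 0.68 and 1.58, with a sum of 7.77, against 0.37 to 2.07 and a sum of 6.61 in S4. The same sums were 82.5 in S17, 91.3 in S32 and 89.9 in SUC2. SWEET11, a sucrose exporter that loads phloem, had 0.968 in J2501 and 0.648 in S4, against 28.3 in S17 and 12.0 in SUC2. ATC had 1.195 in J2501 and 0.952 in S4, against 48.3 in SUC2. CML30, a calmodulin-like protein, had 0.866 in J2501 and 0.702 in S4, against 26.6 in S32. SWEET11 and CML30 were thus near the median of the J2501 array, 0.884, although its label names phloem. ATC and the highest of the 8 markers, at 1.58, lay above that median. Whether phloem cells were present in J2501 was not tested.

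Pericycle and lateral root markers behaved likewise. LBD16, a transcription factor of lateral root founder cells, had 0.929 in J2501 and 0.560 in S4, against 5.87 in S17 and 6.23 in RM1000, and 1.84 in JO121. PUCHI, which patterns lateral root primordia, had 0.782 in J2501 and 0.591 in S4, against 4.87 in RM1000. All 4 of these markers were within 2-fold between J2501 and S4 on both scales. Of the procambium markers CLE41, a peptide that represses xylem differentiation, had 0.794 in J2501 and 0.426 in S4, against 7.76 in S32. The root hair expansins EXPA7 and EXPA18 had 0.826 and 0.696 in J2501 and 0.684 and 0.472 in S4, against 16.9 and 7.05 in COBL9. The other epidermis markers were SCN1, a regulator of the site of hair outgrowth, with 4.71 in J2501 and 11.15 in S4, and 12.3 in COBL9 and 10.03 in RM1000, and TRY, a repressor of hair fate, with 0.835 in J2501 and 0.646 in S4. SCN1 was thus nearly as high in S4 as in hair cells. Few genes of each type carry a symbol in the annotation, so these lists are short.

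**Figure D2:**
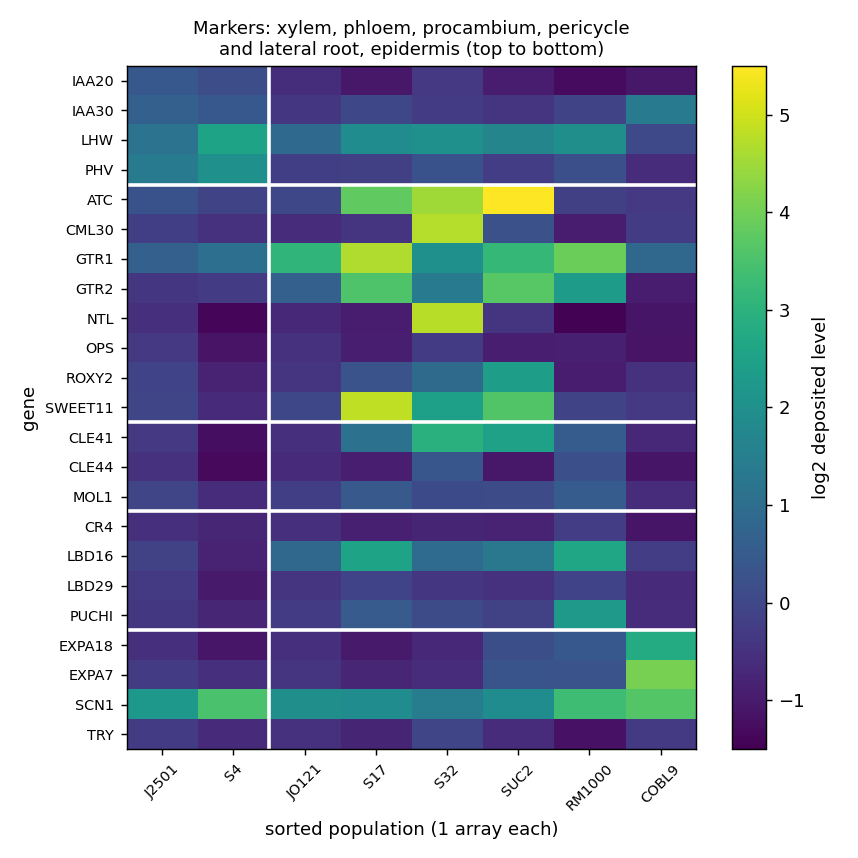
Deposited log2 levels of 23 marker genes (rows, grouped by white lines into xylem, phloem, procambium, pericycle and lateral root, and epidermis) in the 8 sorted populations (columns, 1 array each, J2501 and S4 left of the white line). The xylem rows IAA20 and PHV are brightest in J2501 and S4, and the phloem and lateral root rows are dark in both.

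Some genes were higher in both J2501 and S4 than in every other population. Taking a gene as shared where the lower of the 2 levels was at least 2-fold above the highest of the other 6, there were 32 such probe sets (0.141% of all) as deposited and 77 (0.339%) after normalization. The genes with a symbol among the 77 were PHV, SAH7, the subtilases ARA12 and SBTI1.1, the carboxypeptidase-like scpl35, the wall acetylation family member TBL19 and the pentatricopeptide repeat protein PPR596; this set and those taken by place below were listed after their values were seen. SAH7 had a level of 20.5 in J2501 and 23.2 in S4, and at most 2.53 in the other 6. SBTI1.1 had 2.96 in J2501 and 8.70 in S4, and at most 0.883 elsewhere. Others were present outside the pair: ARA12 had 5.68 in J2501 and 14.7 in S4, and 1.18 to 3.13 in the other 6, and PPR596 had 3.99 in J2501 and 8.26 in S4, and 3.33 in RM1000. Of the genes known here by locus code, AT3G10080 had 10.4 in J2501 and 10.95 in S4, against at most 1.03 in the others.

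GSTU26, a tau class glutathione transferase, which conjugates glutathione to reactive compounds, had the largest excess in J2501 among genes with a symbol. Its level was 6.12 in J2501 and 0.708 in S4, with 11.7 in JO121, 6.67 in S17, 4.13 in S32, 12.9 in SUC2, 5.59 in RM1000 and 14.2 in COBL9. S4 was the lowest of the 8 and J2501 lay among the other 6. The difference was 8.63-fold as deposited and 13.9-fold after normalization. Of the 14 glutathione transferases measured, 3 were at least 2-fold higher in J2501 and 0 lower as deposited, and 4 higher and 0 lower after normalization. Among the 1551 genes with a symbol, 2.45% were higher and 22.5% lower at 2-fold as deposited, and 5.09% higher and 2.71% lower after normalization. The same shares stand beside the list counts that follow. GSTU27 was 1.84 in J2501 and 0.781 in S4, and GSTU25, at 3.01 in J2501 and 2.497 in S4, passed 2-fold only after normalization, at log2 1.56.

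Defence-related peptides and proteins were the second group with higher levels in J2501. LCR69, a cysteine-rich peptide of the plant defensin family, had 13.2 in J2501 and 2.07 in S4, with 11.6 in JO121, 17.2 in S17, 3.38 in S32, 7.51 in SUC2, 24.4 in RM1000 and 0.509 in COBL9. J2501 lay within the range of the pericycle populations, and S4 below all stele populations. The difference was 6.38-fold as deposited and 11.3-fold after normalization. LCR68, of the same family, had 10.4 in J2501 and 4.15 in S4, against 19.7 to 37.1 in the other 5 stele populations and 0.758 in COBL9. Of the 12 osmotin, defensin, thionin and related defence genes measured, 3 were at least 2-fold higher in J2501 and 0 lower on both scales, with a median of 0.81 as deposited and 0.71 after normalization. The 3 were LCR69, LCR68 and OSM34. The other 9 were at low levels in both arrays, none above 1.12 in J2501 or 0.864 in S4.

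The jacalin-related lectins, carbohydrate-binding proteins, had 2 of 4 members at least 2-fold higher in J2501 on both scales. Among all genes with a symbol 2.45% were higher as deposited and 5.09% after normalization. JAL34 had 4.11 in J2501 and 1.62 in S4, and JAL33 1.78 in J2501 and 0.730 in S4. JAL34 was highest in COBL9, at 46.9, with 32.7 in RM1000, 23.8 in SUC2 and 14.8 in S17. JAL33 was highest in RM1000, at 15.9, with 9.18 in SUC2 and 8.48 in COBL9. The metallothionein MT1C had 2.95 in J2501 and 0.809 in S4, with 5.34 to 19.7 in the other 6. S4 was the lowest population for MT1C and J2501 the second lowest. The dehydrin LTI30, a protective protein of cold and drought, had 5.37 in J2501 and 1.93 in S4, and 3.77 to 27.4 elsewhere.

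Of the remaining genes named as higher in J2501, the subtilase SBT4.12 had 2.03 in J2501 and 0.585 in S4, against 36.7 in S17, 47.4 in S32 and 38.7 in SUC2. NET4B, an actin-binding membrane protein, had 1.48 in J2501 and 0.462 in S4. RALFL32, a peptide of the RALF family of growth signals, had 3.16 in J2501 and 1.27 in S4. BGLU28, a beta-glucosidase, had 1.01 in J2501 and 0.427 in S4, and at most 0.904 in the others. In 10 of these 12 genes another population exceeded J2501 after normalization, the exceptions being OSM34 and BGLU28.

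Stress and wounding genes were more often higher in J2501 once the arrays had one distribution. Of 9 measured, 2 were at least 2-fold higher as deposited and 6 after normalization, with 0 lower on either scale and medians of 0.39 and 1.16. The 6 were LTI30, STZ, COR47, TET8 and the glutathione transferases GSTU22 and GSTU25. COR47, a dehydrin, had 22.9 in J2501 and 16.0 in S4, which was log2 0.52 as deposited and 1.17 after normalization. The direction turned for TET8, with 2.88 in J2501 and 3.56 in S4, at -0.31 as deposited and 1.03 after normalization. Of the 21 beta-glucosidases, which split sugars from stored defence compounds and other glycosides, 1 was higher and 1 lower as deposited, and 5 were higher and 0 lower after normalization.

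Wall-remodelling enzymes were split. Of 10 xyloglucan endotransglucosylases, which cut and rejoin wall xyloglucan, 3 were at least 2-fold higher in J2501 and 0 lower as deposited, and 4 higher after normalization. XTH19 had 1.396 in J2501 and 0.595 in S4, XTH18 1.32 in J2501 and 0.623 in S4, and XTH20 0.974 in J2501 and 0.414 in S4. Of 18 expansins, which loosen walls, 1 was 2-fold lower and 0 higher on both scales. That gene was EXPA15, with 2.44 in J2501 and 18.7 in S4, and 1.55 in JO121, 1.05 in S17, 6.76 in S32, 1.77 in SUC2, 1.73 in RM1000 and 1.54 in COBL9. S4 stood above all others for EXPA15, and J2501 was also below S32. The difference was 7.64-fold as deposited and 3.29-fold after normalization.

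Most of the few xylan genes measured were lower in J2501. Xylan is the main hemicellulose of secondary walls, and of 5 genes of its synthesis and acetylation 4 were at least 2-fold lower in J2501 and 0 higher as deposited, and 3 lower and 0 higher after normalization, with medians of -1.47 and -1.12. Among all genes with a symbol 22.5% were lower as deposited and 2.71% after normalization. TBL32 stayed within 2-fold on both scales, at -0.72 and -0.47, and TBL35 was at -1.19 as deposited and -0.23 after normalization. TBL34, a xylan acetyltransferase, had 0.975 in J2501 and 4.87 in S4, with 0.726 in JO121, 0.591 in S17, 1.18 in S32, 0.617 in SUC2, 0.437 in RM1000 and 0.793 in COBL9. IRX15, needed for normal xylan length, had 0.769 in J2501 and 2.62 in S4, and at most 0.674 elsewhere. GUT2, a xylan backbone synthesis protein also called IRX10, had 0.880 in J2501 and 2.45 in S4, and at most 1.14 elsewhere. For these 3 genes J2501 lay within or close to the range of the populations labelled as other tissues, and S4 above it.

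Further genes were high in S4. HMT-1, a homocysteine S-methyltransferase that makes methionine, had 2.49 in J2501 and 20.9 in S4, and 2.22 to 5.91 in the other 6, a difference of 8.42-fold as deposited and 3.59-fold after normalization. 2A6, a dioxygenase of the 2-oxoglutarate-dependent family, had 0.857 in J2501 and 7.18 in S4, and 0.711 to 5.17 elsewhere. CKS, which activates the sugar Kdo for pectin, had 1.24 in J2501 and 9.46 in S4, and 2.107 to 4.07 elsewhere. J2501 was the lowest of the 8 for CKS. CEF, a coat protein of vesicles leaving the endoplasmic reticulum, had 1.36 in J2501 and 8.94 in S4, and 2.75 to 7.52 elsewhere. SPP, a signal peptide peptidase, had 2.16 in J2501 and 11.7 in S4, but 16.6 in COBL9. As deposited J2501 was the lowest of the 8 for CEF and SPP as well. TRM15, a protein of the family that recruits microtubule-organising factors, had 1.84 in J2501 and 11.02 in S4, and 6.29 in S32. IAA29, an Aux/IAA protein, had 0.878 in J2501 and 4.55 in S4, and at most 1.13 elsewhere. ALDH6B2, an enzyme of valine breakdown, had 1.97 in J2501 and 10.7 in S4, but 12.7 in S17 and 14.5 in COBL9. For ALDH6B2 J2501 was the lowest of the 8, and S4 lay within the range of the other 6, which was 3.68 to 14.5.

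**Figure D3:**
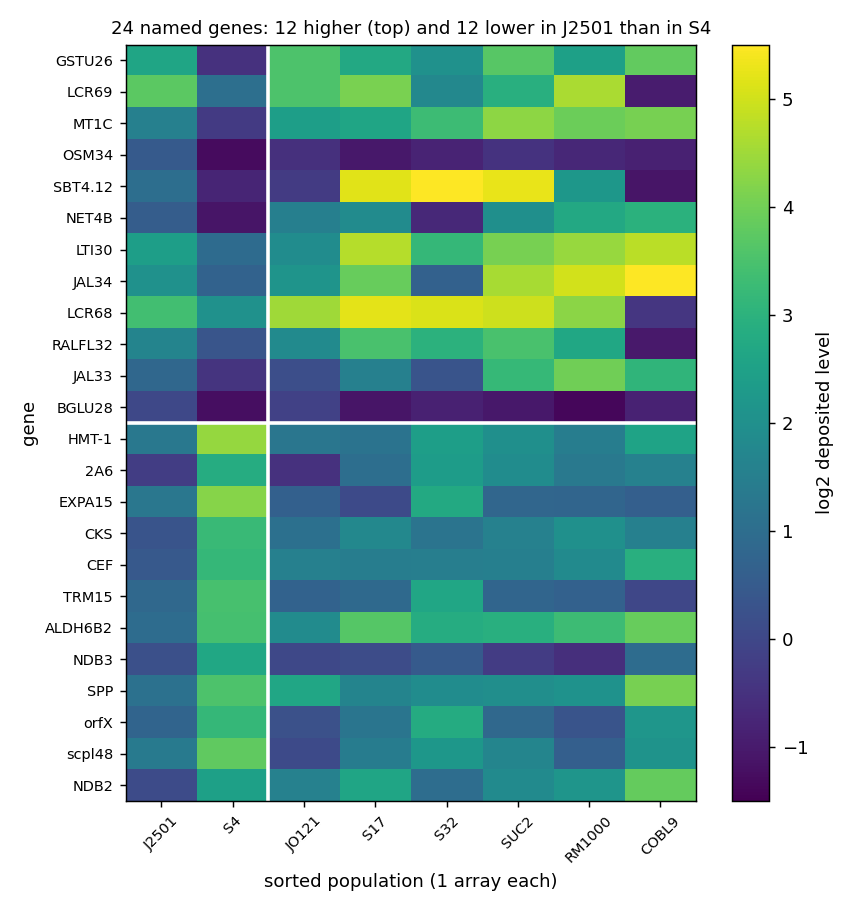
Deposited log2 levels of the 24 named genes in the 8 sorted populations (columns, 1 array each, J2501 and S4 left of the white line); the upper 12 genes are higher and the lower 12 lower in J2501 than in S4. Most of the upper genes, such as MT1C and LTI30, are dark in S4 and brighter in populations other than J2501, and most of the lower genes, such as EXPA15 and HMT-1, are brightest in S4.

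Of 29 serine carboxypeptidase-like proteins, 8 were at least 2-fold lower in J2501 and 1 higher as deposited, a share close to the 22.5% of all genes with a symbol that were lower. After normalization 2 were lower and 0 higher, against 2.71% lower overall. The 2 were scpl48, with 2.63 in J2501 and 13.8 in S4 and at most 4.57 elsewhere, and scpl42, with 0.707 in J2501 and 2.22 in S4. SCPL45 had 4.51 in J2501 and at most 3.39 in the 6 populations other than S4, where it was highest, at log2 -2.15 for J2501 minus S4 as deposited and -0.93 after normalization.

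The alternative NAD(P)H dehydrogenases, which feed electrons into the mitochondrial chain beside complex I, had 3 of 5 members at least 2-fold lower in J2501 as deposited and 2 after normalization, with 0 higher. NDB3 had 1.16 in J2501 and 6.31 in S4, and at most 1.95 elsewhere. NDB2 had 1.07 in J2501 and 5.57 in S4, and 2.02 to 14.4 elsewhere, so J2501 was the lowest of the 8. Of 16 mitochondrion-encoded genes 4 were lower as deposited, close to the 22.5% of all genes with a symbol, and 3 after normalization, against 2.71%, with 0 higher. The mitochondrial reading frame orfX, whose probe set may match several transcripts, had 1.67 in J2501 and 9.01 in S4, and cox1, a subunit of cytochrome oxidase, 2.29 in J2501 and 11.1 in S4, but 18.0 in S32.

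Genes of dividing cells depended on the scale. Of 9 cell cycle and DNA replication genes, 6 were at least 2-fold lower in J2501 and 0 higher as deposited, and 0 of 9 were 2-fold apart in either direction after normalization, with medians of -1.09 and -0.18. All 9 had their highest deposited level in S4. Among all genes with a symbol 22.5% were lower and 2.45% higher as deposited, and 2.71% lower and 5.09% higher after normalization. AUR2, a mitotic kinase, had 1.09 in J2501 and 3.09 in S4, and 0.416 to 1.504 elsewhere. Histone H2B genes were 3 of 4 lower as deposited and 0 of 4 after normalization. HTB2 had 2.22 in J2501 and 4.96 in S4, and 0.589 to 2.91 elsewhere. As deposited S4 was the highest of the 8 for all 4 H2B genes. After normalization J2501 was the highest for HTB1, HTB2 and HTB11, and S4 for HTB4. Of 7 tubulins 5 were lower as deposited and 1 after normalization. That one was TUA6, with 6.89 in J2501 and 31.5 in S4, and 4.50 to 12.7 elsewhere. For HTB2 the direction turned with the scale, at -1.16 as deposited and 0.15 after normalization.

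The remaining families differed little in count after normalization. As deposited 2.45% of all genes with a symbol were higher and 22.5% lower, and after normalization 5.09% were higher and 2.71% lower. Of 22 TBL wall acetylation proteins 1 was at least 2-fold higher and 5 lower in J2501 as deposited, and 1 higher and 1 lower after normalization; the higher one was TBL38, with 5.51 in J2501 and 2.55 in S4. Of 8 cellulose synthase-like proteins 4 were lower as deposited and 0 after normalization. Of 15 genes with a TRM symbol 1 was higher and 2 lower as deposited, and 0 higher and 1 lower after normalization. They include TRM82, a tRNA methyltransferase subunit and no member of that family, which had 1.88 in J2501 and 4.995 in S4 and was 1 of the 2 lower genes as deposited. Of 11 RALF-like peptides 1 was higher and 3 lower as deposited, and 1 higher and 0 lower after normalization. Of 48 UGT glycosyltransferases 1 was higher and 2 lower as deposited, and 1 higher and 0 lower after normalization. None of 14 SWEET sugar transporters or 6 WRKY factors was 2-fold apart on either scale, nor were any of the 2 endodermis and cortex markers and 2 root cap and stem cell markers.

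Of 23 cytochrome P450 genes 0 were 2-fold apart as deposited and 1 was higher after normalization. Of the 8 subtilases with an SBT symbol followed by a number, 1 was higher and 1 lower as deposited, and 1 higher and 0 lower after normalization. That count leaves out the subtilases ARA12 and SBTI1.1 named above, which were lower in J2501 at -1.37 and -1.55 as deposited and within 2-fold after normalization, at -0.18 and -0.185. Of 13 defensins and related cysteine-rich peptides 2 were higher and 0 lower on both scales. Of 13 auxin response genes 0 were higher and 2 lower as deposited, and 1 higher and 1 lower after normalization, and of the 7 Aux/IAA proteins 0 higher and 1 lower, and then 1 and 1. The last of these were IAA30, higher, and IAA29, lower. Of the 4 xylem specification markers 0 were higher and 1 lower as deposited, the lower being LHW; after normalization 1 was higher, IAA30, and 0 were lower. Of the 3 procambium markers 0, and of the 4 epidermis markers 1 as deposited and 0 after normalization, were 2-fold lower, with 0 higher.

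The largest differences of all annotated probe sets belonged to genes known here only by locus code, named after their values were seen. AT4G29200 had 8.25 in J2501 and 0.473 in S4, and 8.54 in JO121, against at most 0.662 in the other 5. It was thus shared by J2501 and the xylem pole pericycle, 17.5-fold above S4. AT1G72230 had 9.66 in J2501 and 0.743 in S4, and at most 1.53 elsewhere, a difference of 13.0-fold. AT2G37870 had 10.04 in J2501 and 0.751 in S4, and at most 4.15 elsewhere. In the other direction AT5G51890 had 1.904 in J2501 and 21.5 in S4, and at most 2.39 elsewhere. In pairs, 4 probe sets (0.0176%) as deposited and 8 (0.0352%) after normalization were at least 2-fold higher in both J2501 and JO121 than in all of the other 6.

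Patterns like the 2 markers were sought over the 8 arrays, by Pearson correlation of log2 levels, as a description. The 5 genes most like OSM34 were AT3G22210 (0.975), AT3G44940 (0.93), TRM24 (0.928), AT1G14120 (0.916) and AT2G04460 (0.909). All 5 had levels under 0.83 in J2501, below the median of that array, 0.884, so their pattern lies among low levels, where J2501 minus S4 was mostly above 0 as deposited. The 5 most like IAA20 were AT2G28330 (0.991), AT1G73780 (0.98), AT3G11640 (0.979), AT2G14660 (0.974) and AT5G40410 (0.973). AT1G73780 was the only one of them above a level of 1, with 6.89 in J2501 and 2.69 in S4, and 0.916 in JO121, 0.536 in S17, 1.35 in S32, 0.723 in SUC2, 0.370 in RM1000 and 0.399 in COBL9.

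Place among all 8 populations differed between the pair. J2501 was at least 2-fold above all other 7 for 10 probe sets (0.0440%) as deposited and 60 (0.264%) after normalization. S4 was so for 595 (2.62%) as deposited and 92 (0.404%) after normalization. S4 was at least 2-fold below all 7 others for 72 (0.317%) as deposited and 164 (0.721%) after normalization, and J2501 for 52 (0.229%) and 8 (0.0352%). Of the 144 probe sets that were 4-fold higher in J2501 after normalization, J2501 was the highest population for 38 and S4 the lowest for 92. Of the 57 lower ones, S4 was the highest for 40 and J2501 the lowest for 18. Over all 22746 probe sets J2501 was the highest for 3499 and the lowest for 2649, and S4 the highest for 3799 and the lowest for 2708. The 144 and the 57 were chosen on the same values of J2501 and S4, so their places were partly fixed by the choice. The genes with a symbol among the 60 of J2501 were OSM34, the oleosin OLEO3, the splicing protein LSM6A, the glycosyl hydrolase GH9B13, the glutaredoxin ROXY1 and the kinase APK1A; none of them was among the 10 as deposited. LSM6A had a deposited level of 3.00 in J2501 and 3.75 in S4, and GH9B13 4.63 in J2501 and 5.796 in S4, so for these the direction turned with the scale, at -0.32 as deposited and 1.03 after normalization for each. ROXY1 had 1.73 in J2501 and 1.65 in S4, and APK1A 1.84 in J2501 and 0.854 in S4. OLEO3 had 1.27 in J2501 and 0.732 in S4, and at most 0.697 elsewhere.

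Sections of whole roots, which share no array with the sorted cells, gave an independent measure. Each of the 2 roots gave 6 meristematic, 2 elongation and 4 maturation sections, counted from the tip upwards. Root 1 also had a section of the columella below these, which root 2 lacked and which was not used. The zones were compared by limma on zone means with root as a block (n = 2 roots). The design sets J2501 against cells of the meristem, so the question was whether genes that differ between the sorted populations also differ between zones. Over all probe sets 6.66% were called higher and 7.07% lower in the maturation zone than in the meristematic zone at an adjusted p of 0.05. In the elongation zone 2.39% were called higher and 5.13% lower than in the meristematic zone. The separate roots were named by different title series, so a batch cannot be told apart from a root. The second elongation section whose title places it in root 1 is described as root 2, and was kept in root 1.

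Of the 37 probe sets that were 4-fold higher in J2501 as deposited, 20 (54.1%) were called higher and 6 (16.2%) lower in the maturation zone, and their median difference was log2 1.2, against -0.04 over all probe sets. Of the 144 after normalization, 66 (45.8%) were called higher and 12 (8.33%) lower. Leaving out the first elongation section of root 1, which left 3.9% of all probe sets called higher, the 20 became 12. Without root as a block, where 1.94% of all were called higher, the number was 10. The elongation zone called 14 of the 37 higher and 4 lower.

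For genes lower in J2501 the outcome turned with the scale. Of the 477 that were 4-fold lower as deposited, 124 (26.0%) were called lower in the maturation zone and 44 (9.22%) higher. Of the 57 after normalization, 7 (12.3%) were called lower and 16 (28.1%) higher. The 124 became 64 without the second elongation section of root 1, 76 without the first elongation section of root 1, 78 without the first elongation section of root 2 and 28 without root as a block. The share of all probe sets called lower was 4.05%, 3.18%, 4.21% and 1.27% in those 4 fits, in the same order. The same turn appeared among genes placed highest in S4. Of the 595 as deposited 200 (33.6%) were called lower in the maturation zone, and of the 92 after normalization 23 (25.0%) were called higher and 6 (6.52%) lower. The 23 became 14 without the third maturation section of root 1, and also 14 without the first elongation section of root 2.

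Of the 164 probe sets with S4 at least 2-fold below all others after normalization, 97 (59.1%) were called higher in the maturation zone and 4 (2.44%) lower. Without the first elongation section of root 1 the 97 became 55, or 33.5% against 3.9% of all probe sets. Without root as a block the 97 became 34, or 20.7% against 1.94% of all. Of the 19 with a symbol, 17 were called higher and 0 lower. They included STZ, a zinc finger repressor of stress responses, TET8, a tetraspanin, GRX480, a glutaredoxin of defence signalling, PYK10 and BGLU46, both beta-glucosidases, and MT1C, GSTU25 and GSTU26. STZ had a level of 9.42 in J2501 and 4.37 in S4, and 6.42 to 22.7 in the other 6. In the sections STZ rose by log2 3.15 in the maturation zone (SE 0.19, limma adjusted p = 0.00405), by 3.16 in root 1 and 3.14 in root 2. BGLU46 had 2.04 in J2501 and 1.49 in S4, and 3.34 to 14.0 elsewhere, and rose by 3.78 in the maturation zone (SE 0.22, limma adjusted p = 0.00395). For both genes S4 was the lowest of the 8, and J2501 stood below at least 5 of the other 6.

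**Figure D4:**
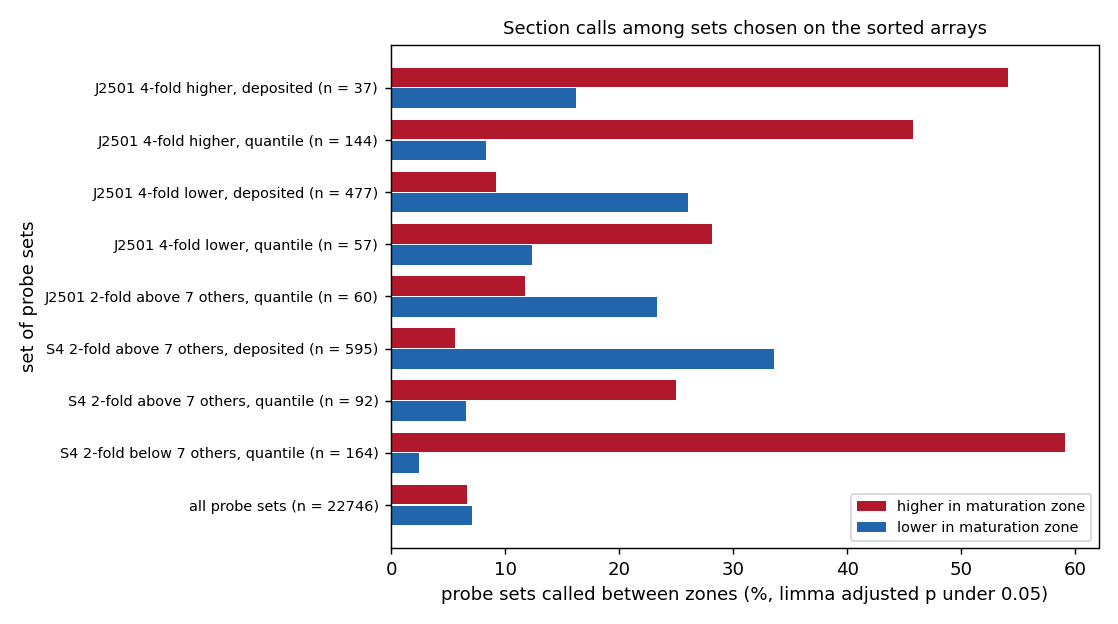
Share of probe sets called higher (red) or lower (blue) in the maturation than in the meristematic zone of sectioned roots, in percent, for sets chosen on the sorted arrays and for all probe sets (bottom). The genes with S4 below all others reach 59.1% called higher. Those with S4 above all others are more often called lower (33.6%) than higher (5.55%) when chosen as deposited. When chosen after normalization they are more often called higher (25.0%) than lower (6.52%).

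Of the 12 named genes higher in J2501, 5 rose in the maturation zone, 0 fell and 7 did not pass. Over all probe sets 6.66% were called higher and 7.07% lower. MT1C rose by log2 4.86 (SE 0.20, limma adjusted p = 0.00347), by 4.71 in root 1 and 5.00 in root 2. It lay between 17.04 and 50.6 in the 8 maturation sections, against 0.502 to 0.952 in positions 2 to 6 of the meristem. In position 1, the first meristematic section, it was at 12.7 in root 1 and 10.9 in root 2. LCR69 rose by 2.03 (SE 0.19, limma adjusted p = 0.00857), and reached 7.18 in root 1 and 11.8 in root 2 in the last section. LCR68, JAL33 and GSTU26 rose by 1.95, 1.93 and 0.68. OSM34 did not pass, at 0.15 (SE 0.12, limma adjusted p = 0.532), and neither did IAA20, at -0.22 (SE 0.15, limma adjusted p = 0.459).

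Of the 12 named genes lower in J2501, 3 fell in the maturation zone, 2 rose and 7 did not pass, beside the same overall shares. 2A6 fell by 1.33 (SE 0.26, limma adjusted p = 0.0340), CKS fell by 1.16 (SE 0.14, limma adjusted p = 0.0133) and CEF fell by 0.63. The 2 that rose were scpl48, by 2.104 (SE 0.24, limma adjusted p = 0.0116), and NDB2, by 1.05. TBL34 rose by 0.89 (SE 0.13, limma adjusted p = 0.0182). Along the roots TBL34 stood at 0.664 in root 1 and 0.441 in root 2 in position 2, and at 1.96 in root 1 and 2.34 in root 2 in position 6, the last section of the meristem. IRX15 did not pass, at 0.52 (limma adjusted p = 0.0655), and EXPA15 did not, at -0.50 (limma adjusted p = 0.108). Of the 9 cell cycle genes, 2 fell and 0 rose, and all 4 H2B histones fell, against 7.07% of all probe sets called lower.

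**Figure D5:**
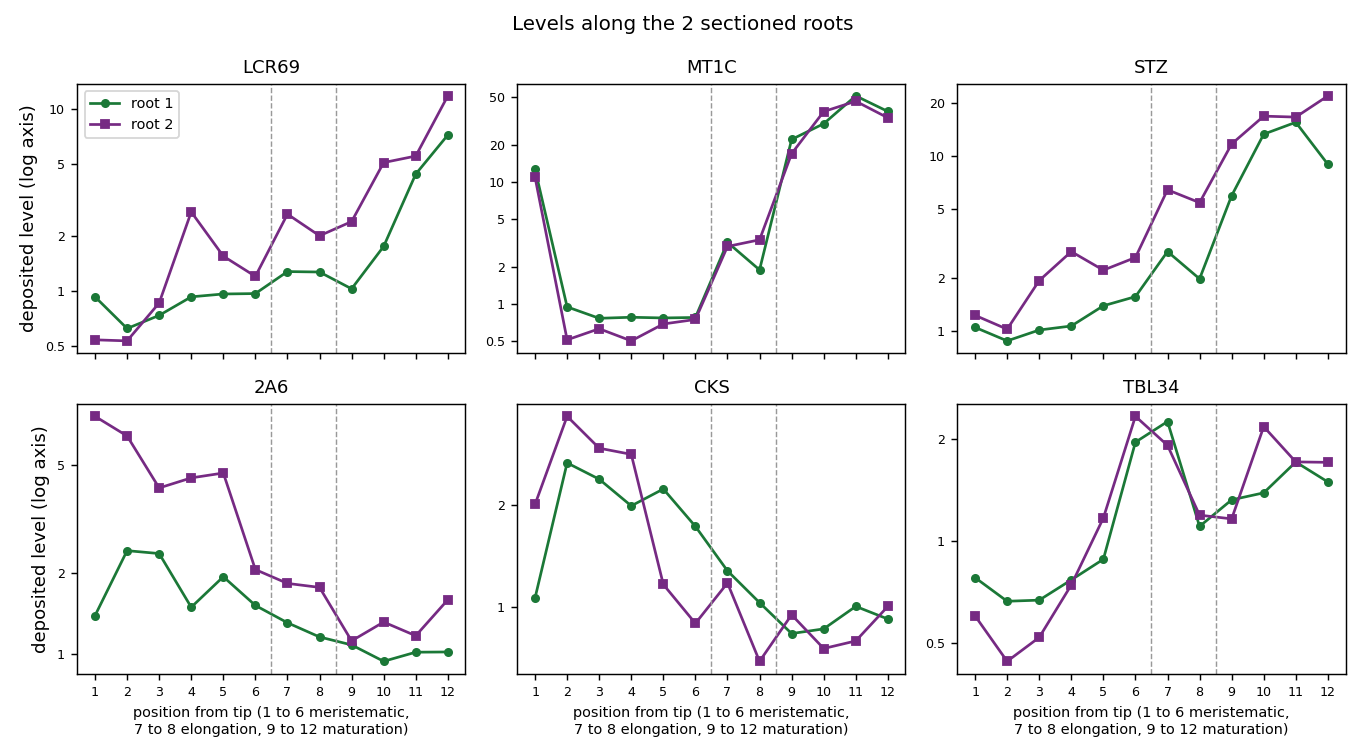
Deposited level (log axis) of 6 genes by position from the tip in root 1 (circles) and root 2 (squares); dashed lines divide the meristematic, elongation and maturation zones. LCR69, MT1C and STZ climb in the maturation sections in both roots, 2A6 and CKS are highest in the meristem, and TBL34 stands higher at position 6 than at position 2.

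Of the 5 genes known by locus code with the largest rise in J2501, 3 were called higher in the maturation zone and 1 lower. Of the 5 with the largest fall, 2 were called higher and 1 lower. Over all probe sets the shares were 6.66% and 7.07%. AT5G54370, with 6.55 in J2501 and 0.564 in S4, changed by log2 -3.42 in the maturation zone (SE 0.19, limma adjusted p = 0.00395), against the direction of the sorted cells. AT1G72230 rose by 2.198 in the maturation zone (SE 0.13, limma adjusted p = 0.00395) and by 2.17 in the elongation zone (limma adjusted p = 0.00956). AT2G37870 rose by 1.201 in the maturation zone (limma adjusted p = 0.0154). AT4G29200 did not pass, at 0.07 (limma adjusted p = 0.818). AT5G51890, which was 11.3-fold lower in J2501 as deposited, rose by 2.24 in the maturation zone (SE 0.25, limma adjusted p = 0.0110), against the direction of the sorted cells.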

How the data were processed

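The values used were the deposited intensity values per probe set: linear, above 0, with array medians near 1. Per the labels, RNA was amplified in 2 cycles and hybridised as biotin-labelled cRNA; the method of background correction, summarisation and scaling is not given in the sources used. Precision is limited by the number of arrays, 1 for each sorted population.

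Levels were used on the log2 scale, without an offset or a filter. The difference J2501 minus S4 was taken per probe set as deposited and after quantile normalization over the 8 sorted arrays, and was given no test. Probe sets were named through the platform annotation: 13513 listed 1 gene, 503 several and 8730 were not listed; 13436 matched TAIR10.1 by gene ID. Of these 1579 probe sets of 1551 genes carried a symbol, and a gene was named by its probe set of highest mean level. Named genes were the 12 largest and 12 smallest differences that kept their sign and were at least 2-fold after normalization, with a higher level of at least 1; list members named were those of largest absolute difference, and the rest are said to be chosen after their values were seen. The members and lists were chosen with earlier results of these data known; the 33 lists measured 352 genes, taken by symbol after the annotation was read.

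For the zones, log2 values of the 24 section arrays were averaged to 6 values (3 zones in 2 roots) and fitted in limma 3.58.1 (R 4.3.3) with zone and root, two-sided, with Benjamini-Hochberg adjustment over all 22746 probe sets at 0.05 (2 residual and 3.06 prior degrees of freedom). Sections of a number come from the same root, and root 2 minus root 1 correlated across probe sets, for the 66 pairs of positions, between -0.233 and 0.834 (median 0.477). On simulated data 87 of 100 probe sets changed by log2 1 and 100 of 100 changed by log2 2 were recovered, with 12 false calls. The simulated noise was independent between values apart from a shift between roots, so the recovery holds for that setting only. Alternatives were other scalings, offsets of 0.1 and 1, a filter, and section fits without the block, on all 24 arrays, after quantile normalization and without each array. Python 3.11.15, pandas 2.3.3, numpy 2.4.6 and matplotlib 3.10.9 were used.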

Additional observations from a re-analysis of the deposited data

How the results depend on the processing

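The counts at 4-fold depended on the scaling. The 37 higher in J2501 became 144 after quantile normalization over 8 arrays, 116 over the 2 arrays, 297 after dividing by each array's SD and 14 with an offset of 1; an offset of 0.1 gave 27 and the filter 37. The 477 lower became 57, 42, 73 and 105 in the same order, and 398 and 477 with the offset of 0.1 and the filter. Asking for 2-fold on both scales, chosen after seeing the data, left 280 of 551 higher and 581 of 4429 lower. After normalization the counts of J2501 above all others moved to 60 from 10, S4 above to 92 from 595, J2501 with S4 to 77 from 32, J2501 with JO121 to 8 from 4, S4 below to 164 from 72 and J2501 below to 8 from 52.

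With no replicate block in the section fits the 20, 124, 97 and 23 calls became 10, 28, 34 and 11. Leaving out 1 section array gave 12 to 22, 64 to 140, 55 to 110 and 14 to 26. The fit to all 24 arrays gave 21, 162, 117 and 35, and normalized sections 18, 102, 91 and 22. Choosing the sets on the other scale gave 66, 7, 41 and 33. The cause of these shifts was not tested.

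Of 35 gene differences 14, 8 and 18 moved by log2 1 or more after normalization, with an offset of 1 and after SD scaling; their signs are no check, since 24 of the genes were chosen to keep theirs after normalization. Of 33 list medians 4, 0 and 3 changed sign. With 1 array each, the differences have no replicate check, and low genes carry a positive shift as deposited (median 0.73 in the lowest of 4 classes of level).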
